A study of Mus musculus with 2 samples.

Results

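Slc1a2, Slc1a3, Glul, Aqp4, Gja1, Gjb6, Slc4a4 and Mlc1 are genes through which astrocytes take up glutamate, move water and bicarbonate, and couple to each other. These 8 genes, of 25120 with a column in either table, were taken by name, and all 8 had a column in both tables. They were followed in single cells of the basolateral amygdala, a forebrain nucleus involved in fear and reward. Adult C57BL/6 mice had been given, over 3 days, either vehicle or a daily dose of 1 mg/kg FGF21. FGF21 is a hormone secreted mainly by the liver, and the series concerns cells that express its co-receptor KLB. Tissue of 3 mice was pooled per treatment, digested with pronase with actinomycin D present, which blocks transcription, and sorted for the red fluorescent protein tdTomato and for viability. What drives tdTomato in these mice is not given in the sources used here. Each pool gave 1 library, so the treatments had no replicates, no test was possible, and every interval below is a 95% interval that covers counting error only.

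Astrocytes clear glutamate from the space around synapses through the sodium-coupled transporters encoded by Slc1a2 and Slc1a3, and glutamine synthetase, encoded by Glul, turns that glutamate into glutamine. Their end-feet on blood vessels carry the water channel aquaporin of Aqp4 and the membrane protein of Mlc1, which is mutated in a leukodystrophy with brain swelling. Gja1 and Gjb6 encode the main astrocytic connexins, which form gap junctions between astrocytes. Slc4a4 encodes a sodium bicarbonate cotransporter that regulates pH. Of these genes, Glul is known to be expressed by oligodendrocytes too, and Slc1a2 and Slc1a3 transcripts are known from oligodendrocyte precursors.

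The vehicle library gave 2337 used cells with 10582609 unique molecules (UMIs) and the FGF21 library 1935 with 14085005, at medians of 4232 and 6838 UMIs per cell. Cells were clustered with the 8 genes left out, and clusters were named from markers that did not include them. Astrocyte-like cells numbered 98 in the vehicle library and 192 in that of FGF21, with 405985 and 1205590 UMIs, and all 12 astrocyte markers had UMIs in both. The cells of both libraries lay in 1 cluster. Oligodendrocyte precursor-like cells (373 and 587), differentiating precursor-like cells (38 and 38), oligodendrocyte-like cells (41 and 82) and microglia-like cells (1418 and 889) were the main classes set beside them. The libraries stood apart within 2 of these classes: of precursor-like cells, 345 vehicle and 43 FGF21 cells lay in 1 cluster and 25 and 534 in another, and of microglia-like cells 1409 and 28 against 9 and 861. A further precursor-like cluster of 3 and 10 cells was led by the cell-cycle genes Top2a and Mki67. The libraries shared 12 barcode labels.

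Promoter sequence was available for 7 of the 8 genes from RefSeq on GRCm38.p6, as the 250 bases before the annotated start. Slc1a2 is printed because every astrocyte-like cell had a UMI of it, Glul because it was the gene most shared with other classes, and Gja1 and Gjb6 because they had the lowest FGF21 to vehicle ratios in those cells. Capitals mark TTGGC, the core element bound by nuclear factor I proteins, or its complement GCCAA on the other strand.
Slc1a2: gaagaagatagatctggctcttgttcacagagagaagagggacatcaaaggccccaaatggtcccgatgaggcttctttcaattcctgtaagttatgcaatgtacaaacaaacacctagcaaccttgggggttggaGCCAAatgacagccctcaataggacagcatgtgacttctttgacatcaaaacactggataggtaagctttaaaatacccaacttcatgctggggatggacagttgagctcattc
Glul: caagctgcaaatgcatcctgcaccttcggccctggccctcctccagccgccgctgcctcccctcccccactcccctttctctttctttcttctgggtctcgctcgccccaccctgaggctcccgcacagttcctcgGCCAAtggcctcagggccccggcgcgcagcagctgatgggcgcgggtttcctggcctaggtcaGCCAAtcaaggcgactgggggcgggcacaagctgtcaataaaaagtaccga
Gja1: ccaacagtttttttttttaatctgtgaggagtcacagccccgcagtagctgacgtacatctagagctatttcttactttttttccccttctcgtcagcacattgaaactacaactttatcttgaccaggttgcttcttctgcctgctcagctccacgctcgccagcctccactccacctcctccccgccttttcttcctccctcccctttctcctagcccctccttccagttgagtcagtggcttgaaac
Gjb6: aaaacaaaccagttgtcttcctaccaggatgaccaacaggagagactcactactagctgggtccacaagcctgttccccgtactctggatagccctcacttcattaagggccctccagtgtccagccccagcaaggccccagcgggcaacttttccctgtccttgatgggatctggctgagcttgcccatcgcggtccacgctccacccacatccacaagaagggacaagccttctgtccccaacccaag
The Slc1a2 window (chr2:102706188-102706437, plus strand) lay inside the gene as GENCODE annotates it (chromosome 2, 102658659 to 102790784), with 29 of its bases in an exon. It held 44.8% G and C and 1 CpG. The Glul window (chr1:153899679-153899928, plus strand) held 64.8% and 15 CpGs and lay upstream of the gene (chromosome 1, 153899944 to 153909723). The Gja1 window (chr10:56377050-56377299, plus strand) held 6 CpGs. That of Gjb6 (chr14:57133612-57133861, minus strand) held 56.8% G and C and 5 CpGs. The median over 32851 windows of all genes was 52.4% G and C (quartiles 45.2 and 61.2).

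Searched on both strands, TTGGC was in 5 of the 8 windows of these genes (Slc4a4 has 2 starts) and in 41.5% of all windows. In the Slc1a2 window it began 114 bases before the start, and the Glul window held 2, at 114 and 51 bases before it. Neither connexin window held it. The full nuclear factor I palindrome, made of that core and its complement 5 bases apart, was in 0 of 8 windows and 0.0365% of all. The STAT element TTCNNNGAA and the TATA element TATAAA were each in 1 of 8 windows, that of Slc1a3, and in 7.02% and 12.4% of all windows. The RBPJ element GTGGGAA (5.42% of all windows) and the SOX element ACAATG (10.7%) were in 0 of 8. A match describes the letters in this window and nothing about binding.

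All 8 genes had their highest level in astrocyte-like cells in both libraries, among classes of at least 20 cells, and all 8 were there at least 5-fold above precursor-like cells. Levels are UMIs per 1000000 UMIs of the class (CPM). Both conditions together held for 1.52% of the 12076 genes compared in the vehicle library and 1.92% of 12608 in that of FGF21. For 7 of the 8, all but Glul, every other class of at least 20 cells stood at least 5-fold below astrocyte-like cells. That held for 0.687% and 0.817% of all genes. Smaller classes came closer: Gjb6 had 722 CPM in 19 vehicle fibroblast-like cells, against 1049 in astrocyte-like cells. Slc1a3 had 1452 in 9 FGF21 fibroblast-like cells, against 5939. In 16 FGF21 endothelial-like cells Slc1a2 had 2301 and Slc1a3 1618, mostly from 1 cell. Although left out of clustering, Gja1, Slc4a4, Aqp4 and Slc1a2 were among the 10 genes with the largest fold in the astrocyte-like cluster.

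**Figure D1:**
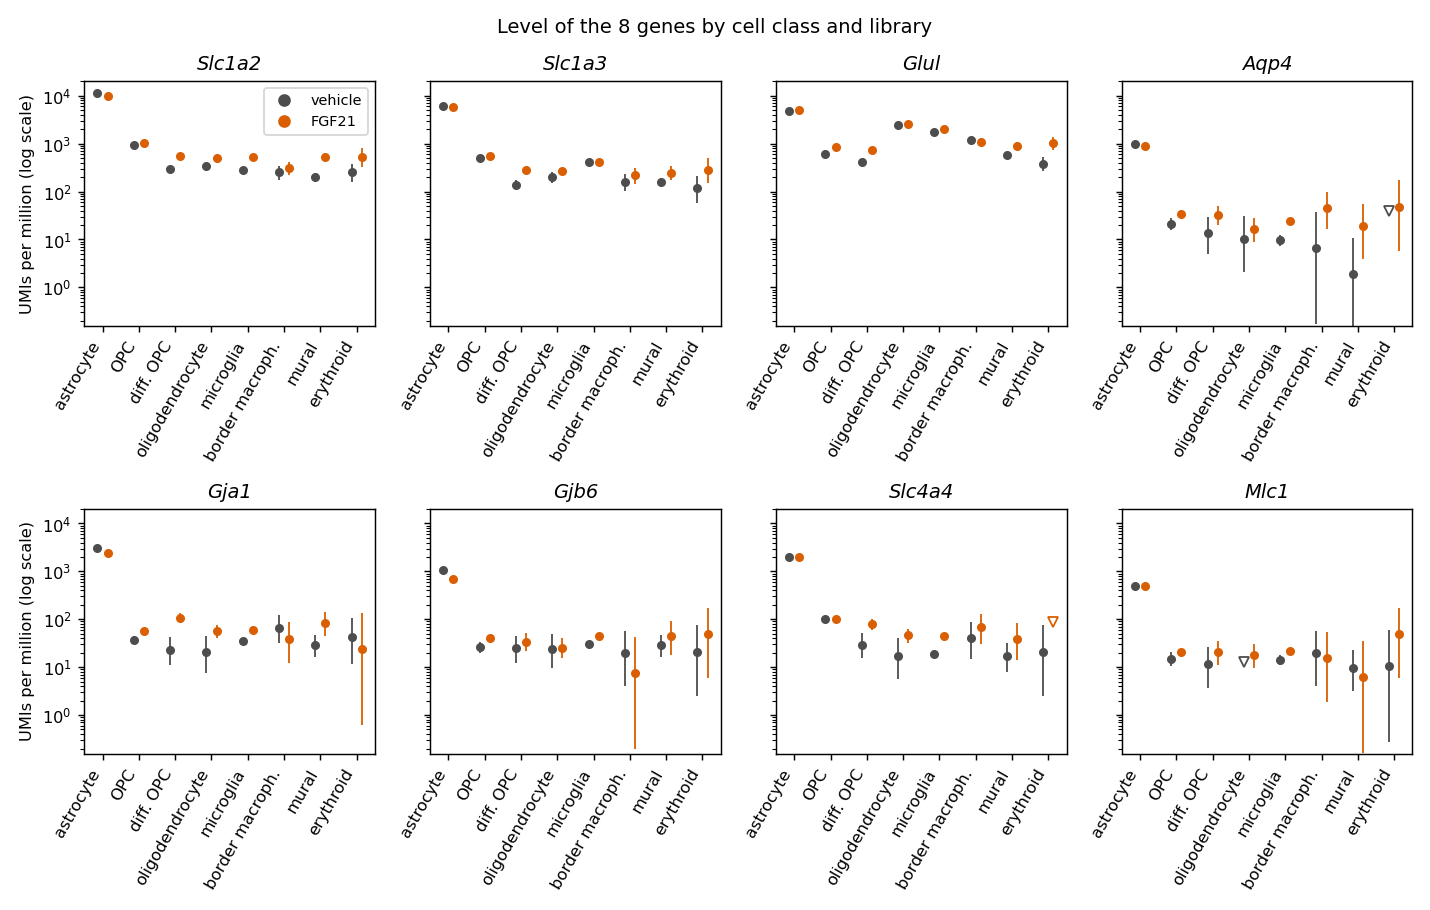
Level of each gene (vertical axis, CPM, log scale) in 8 cell classes (horizontal axis; OPC, oligodendrocyte precursor; diff., differentiating), with 95% Poisson intervals as bars; open triangles mark upper limits where no UMI was counted. The astrocyte-like points are the highest in all 8 panels, and only Glul has other classes within 5-fold of it, at 2493 and 2517 in oligodendrocyte-like cells.

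Slc1a2 reached 11559.5 CPM (11231 to 11895) in vehicle and 9926 (9749 to 10106) in FGF21 astrocyte-like cells, and every one of the 98 and 192 cells had a UMI. Among classes of at least 20 cells, precursor-like cells came next, at 946 (908 to 986) and 1019 (992 to 1047). Astrocyte-like cells were thus 12.2-fold (11.6 to 12.8) and 9.74-fold (9.43 to 10.1) above them, and 41.1-fold and 19.3-fold above microglia-like cells. For Slc1a3, the second glutamate transporter, the astrocyte-like levels were 6025 (5788 to 6268) and 5939 (5802 to 6078) CPM. Its next class of that size was again the precursor-like one, at 506 and 561, with microglia-like cells close behind at 405 and 423. The intervals of those neighbours did not overlap in either library.

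Glul was the exception in its breadth. It stood at 4843 CPM (4631 to 5061) and 4993 (4868 to 5121) in astrocyte-like cells, at 2493 (2314 to 2681) and 2517 (2407 to 2631) in oligodendrocyte-like cells, and at 1764 (1730.3 to 1799) and 2004 (1967 to 2042) in microglia-like cells. Astrocyte-like cells therefore exceeded oligodendrocyte-like cells 1.94-fold (1.78 to 2.12) and 1.98-fold (1.88 to 2.09). Classes of under 20 cells came closer with FGF21: 16 endothelial-like cells had 3861 (3342 to 4438) and 9 fibroblast-like cells 3312. Of the 198 endothelial-like UMIs, 98 came from 1 cell, and without it the level was 2803. In the vehicle library these classes had 1321 and 2468. Within the oligodendrocyte lineage Glul was 608 and 860.3 CPM in precursor-like and 423 and 741 in differentiating cells, and it was highest in the mature class, where both transporters were lower than in precursor-like cells. With each cell thinned to 2000 UMIs, 100% of vehicle and 95.0% of FGF21 oligodendrocyte-like cells had a Glul UMI. So did 95.6% and 96.5% of microglia-like cells.

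Aqp4 was measured at 1005 CPM (909.8 to 1107) and 875 (823 to 929.5) in astrocyte-like cells and at no more than 48.2 in any other class of at least 20 cells. Astrocyte-like cells stood 46.9-fold (35.2 to 63.7) and 26.3-fold (22.4 to 31.0) above precursor-like cells, where it was 21.4 and 33.3. Mlc1 had 493 CPM (427 to 566) and 484 (445 to 524), against 15.0 and 20.3 in precursor-like cells, a ratio of 32.9 (23.1 to 48.1) and 23.8 (19.3 to 29.6). In the 41 vehicle oligodendrocyte-like cells it had 0 UMIs, with an upper limit of 12.7 CPM. For Aqp4 the intervals of precursor-like and microglia-like cells lay apart in the vehicle library (16.1 to 28.0 and 7.26 to 12.5) and overlapped in that of FGF21, and for Mlc1 they overlapped in both.

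Gja1 had 3138 CPM (2968 to 3315) and 2454 (2366 to 2544) in astrocyte-like cells, 84.3-fold (68.2 to 105) and 42.4-fold (37.7 to 47.9) above precursor-like cells at 37.2 and 57.8. Its partner Gjb6 had 1049 (952 to 1154) and 681 (635 to 729), 40.5-fold (31.1 to 53.6) and 16.8-fold (14.4 to 19.6) above 25.9 and 40.6. Slc4a4, the bicarbonate cotransporter, had 2019.8 (1884 to 2163) and 2016 (1937 to 2098), 19.7-fold above precursor-like cells in both libraries (17.1 to 22.7 and 17.9 to 21.7). For Slc4a4 the precursor-like class came next, at 103 and 102. For the connexins no class of the oligodendrocyte lineage did in the vehicle library. There, among classes of at least 20 cells, 32 endothelial-like cells ranked next. They had 151 CPM (68.8 to 286) of Gja1 and 66.9 (18.2 to 171) of Gjb6, from only 9 and 4 UMIs. The 19 fibroblast-like cells, too few to be ranked, had 447 and 722. In the FGF21 library differentiating precursor-like cells ranked next for Gja1, at 107 CPM. That was 1.78-fold (1.36 to 2.30) above microglia-like cells, with 18 of the 72 UMIs from 1 cell. For Gjb6 the erythroid-like cells ranked next there, at 48.2 CPM from 2 UMIs.

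Most astrocyte-like cells carried most of the genes. Among cells thinned to 2000 UMIs, the median astrocyte-like cell had UMIs of 7 of the 8 genes in both libraries, and 24 of 77 vehicle cells (31.2%) and 49 of 164 FGF21 cells (29.9%) had all 8. No astrocyte-like cell had 3 or fewer. The median was 2 and 3 in precursor-like and in microglia-like cells, and none of those had all 8. Thinning left out 21 and 28 shallower astrocyte-like cells. Unthinned, the share of astrocyte-like cells with a UMI had a median over the 8 genes of 95.4% and 96.9%, at median depths of 4218 and 6115 UMIs. The same medians in precursor-like cells were 29.9% and 45.7% unthinned and 12.6% and 14.1% thinned.

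Aqp4, which is not known as a microglial gene, had a UMI in 3.88% of vehicle and 13.8% of FGF21 microglia-like cells, at median depths of 4175 and 6013 UMIs. These shares were taken as its background, against 80.6% and 87.0% in astrocyte-like cells; whether they come from free RNA or from barcodes that hold more than 1 cell was not tested. In precursor-like cells, with 6435 and 8931 UMIs, they were 8.31% and 25.9%, and after thinning to 2000 UMIs 3.52% and 5.15% against 1.86% and 4.27% of microglia-like cells.

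**Figure D2:**
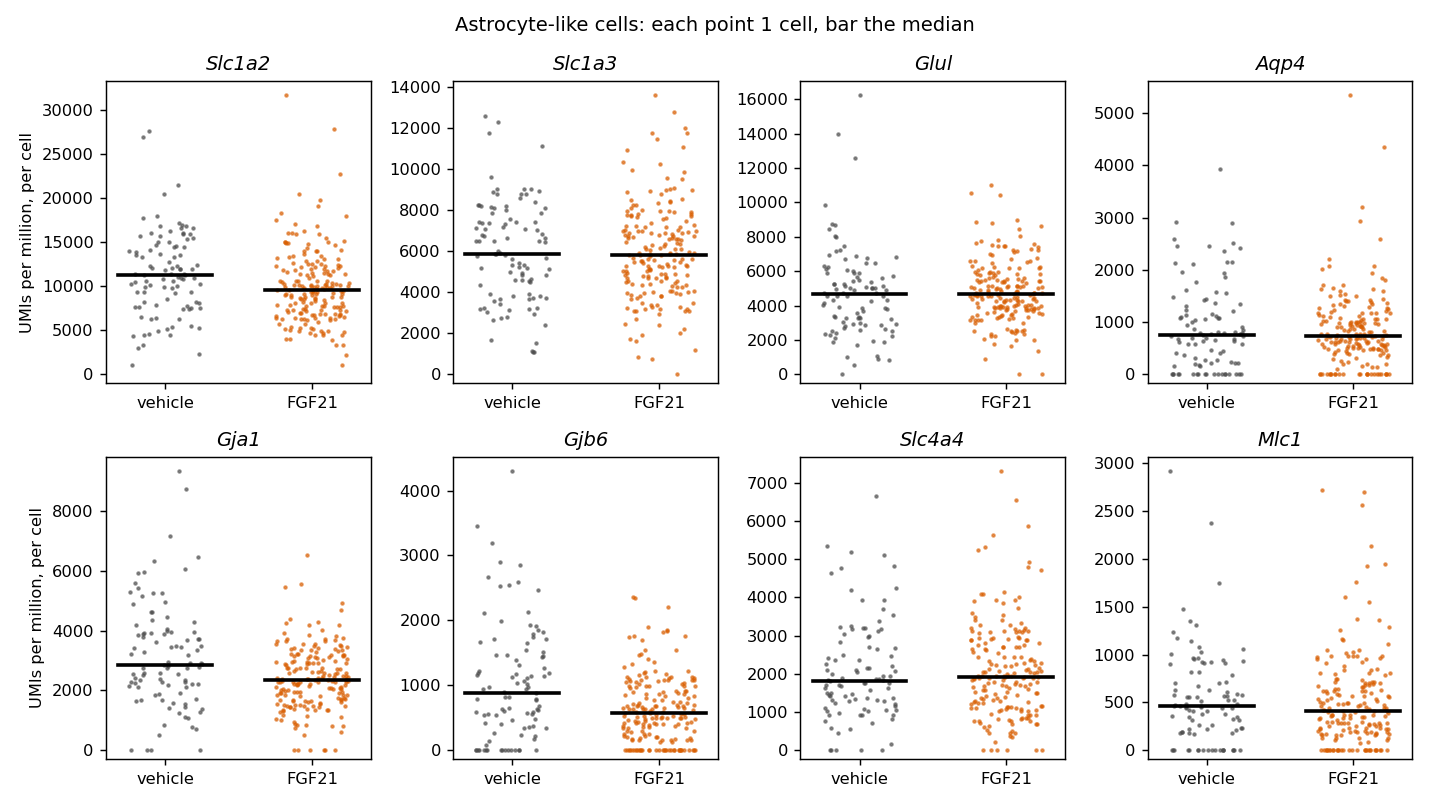
Each point is 1 astrocyte-like cell of the vehicle (98) or FGF21 (192) library, placed by its CPM within that cell (vertical axis, linear), and the bar is the median. The medians of Slc1a3 (5874 and 5832) and Glul (4649 and 4658) lie level, that of Gjb6 is 881 against 567, and the ranges of both libraries overlap for all 8 genes.

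Across single astrocyte-like cells, Slc1a2 ran from 1074 to 27679.8 CPM in the vehicle library with a median of 11269.8, and from 1069.5 to 31766 with a median of 9591 in that of FGF21. Its coefficient of variation was 0.421 and 0.422, against 0.186 and 0.168 from counting alone. Slc1a3 had 0.412 and 0.392 against 0.257 and 0.218. Mlc1, with few UMIs per cell, had 0.920 and 0.958 against 0.853 and 0.743, so most of its spread was of the size counting gives. Gja1 had 0.563 and 0.441 against 0.354 and 0.343.

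The genes hardly varied together from cell to cell within the class. In cells thinned to 4000 UMIs (51 vehicle and 143 FGF21 cells; 47 and 49 shallower ones left out), the median Spearman correlation over the 28 pairs was -0.02 and 0.06. The values ran from -0.24 to 0.38 and from -0.05 to 0.27. Slc1a2 and Slc1a3 gave 0.18 and 0.27, and Gja1 and Gjb6 gave -0.05 and 0.01. These are descriptions of sparse counts, in cells that share a library.

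Over 8 classes with at least 20 cells in each library, each library giving a point (16 points, log2 of CPM + 1), the profiles of the 8 genes were alike. Slc1a2 and Slc1a3 had a Pearson correlation of 0.97, and Gja1 and Gjb6 of 0.92, while Glul had 0.49 with Mlc1 and 0.52 with Slc4a4. The genes most like each were Aldoc (0.975), Clu (0.968) and Slc6a11 (0.964) for Slc1a2, and Aldoc (0.950), Ntsr2 (0.938) and Slc6a11 (0.936) for Slc1a3. For Aqp4 they were Scara3 (0.979), Ntsr2 (0.957) and Aldoc (0.944). For Glul they were Phgdh (0.835), Lix1 (0.835) and Clmn (0.811), the lowest values of the set. Gja1 was closest to Fam107a (0.948), Sfxn5 (0.925) and Ppp1r3g (0.923), and Gjb6 to Camk2g (0.926), Ppp1r3g (0.914) and Gstm1 (0.907). Slc4a4 was closest to Fgfr3 (0.978), Nwd1 (0.964) and Phkg1 (0.948), and Mlc1 to Sox9 (0.920), Chst1 (0.915) and Acsbg1 (0.912). Aldoc, Slc6a11, Ntsr2, Fgfr3, Sox9 and Acsbg1 were among the markers that named the astrocyte-like cluster, and the points share their libraries.

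Sharing with the oligodendrocyte lineage was set beside the level in microglia-like cells of the same library. That level was no common floor for Glul, 1764 and 2004 CPM, or for vehicle Slc1a3, 405 CPM: background, estimated below, made up 28.0% and 33.9% of their Glul UMIs and 49.8% of their vehicle Slc1a3 UMIs. In the vehicle library, Slc1a2 was 3.36-fold (3.16 to 3.59), Aqp4 2.23-fold (1.5 to 3.31) and Slc4a4 5.55-fold (4.41 to 7.01) higher in precursor-like than in microglia-like cells. In the FGF21 library, Slc4a4 was 2.26-fold (1.94 to 2.63) higher, Slc1a2 1.98-fold (1.89 to 2.07) and Aqp4 1.37-fold (1.09 to 1.73). At least 2-fold higher were thus 3 of 8 genes with vehicle and 1 of 8 with FGF21, against 26.7% and 26.2% of all genes. In the vehicle library 1 precursor-like cell held 12 of the 53 Aqp4 UMIs. Without that cell Aqp4 was at 16.6 CPM against 9.61 in microglia-like cells, less than 2-fold, and with cells holding 2 or more astrocyte marker UMIs left out of both classes (57 of 373 precursor-like cells kept) the ratio was 1.03. Slc1a3 was 1.25-fold (1.17 to 1.34) and 1.33-fold (1.25 to 1.40) higher. Gja1 (1.04 and 0.966), Gjb6 (0.867 and 0.887) and Mlc1 (1.05 and 0.951) had intervals that included 1 in both libraries.

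**Figure D3:**
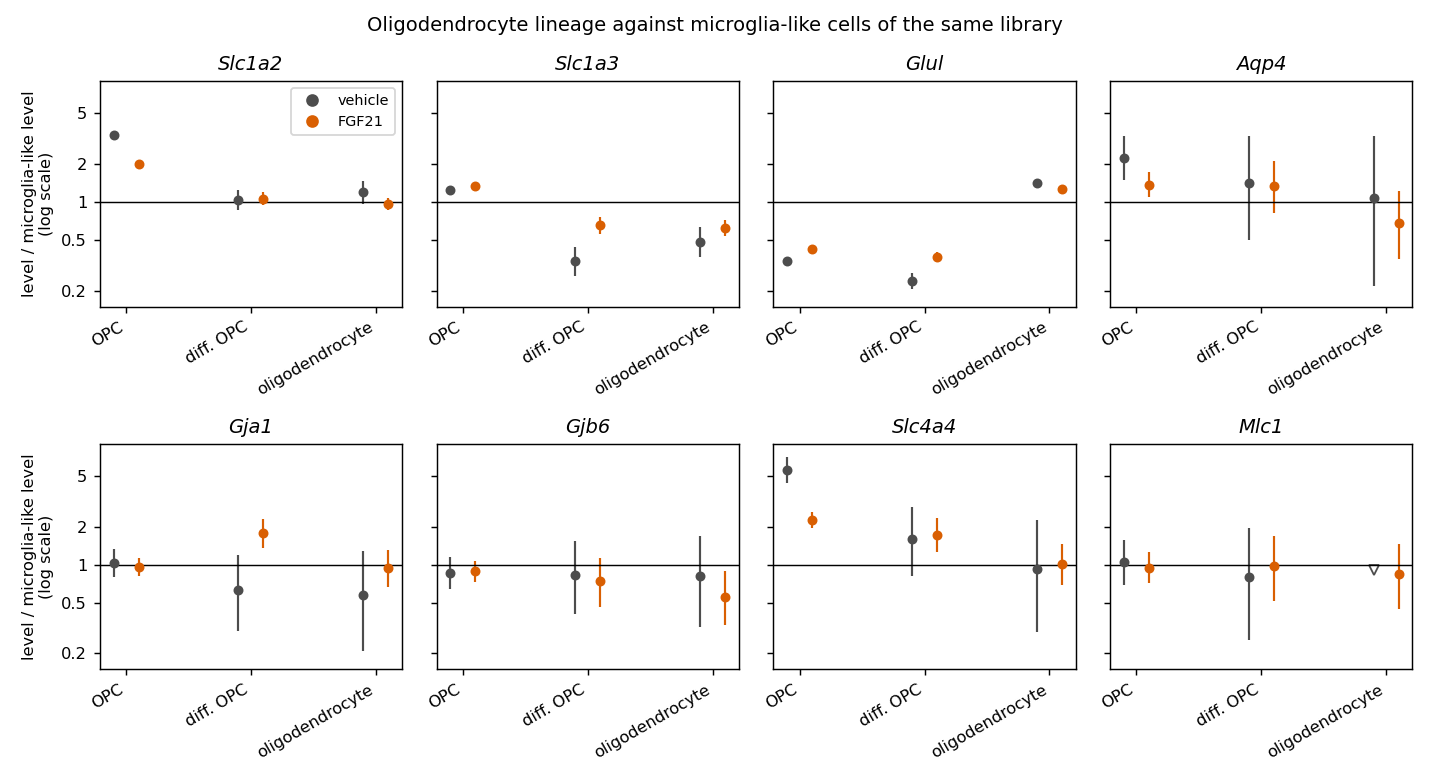
Ratio of the level in each of 3 oligodendrocyte lineage classes (horizontal axis) to that in microglia-like cells of the same library (vertical axis, log scale), with 95% counting intervals; the line marks a ratio of 1, and the open triangle an upper limit. Slc1a2, Slc1a3, Aqp4 and Slc4a4 are above 1 with their intervals in precursor-like cells of both libraries. Glul is below 1 there and above 1 in oligodendrocyte-like cells.

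The transporter signal was lower in the later stages. Relative to microglia-like cells, Slc1a2 was 1.04-fold (0.864 to 1.25) and 1.06-fold (0.952 to 1.19) in differentiating precursor-like cells and 1.19-fold (0.960 to 1.46) and 0.964-fold (0.864 to 1.07) in oligodendrocyte-like cells. Precursor-like cells had 3.23-fold (2.70 to 3.88) and 1.86-fold (1.67 to 2.07) more Slc1a2 than differentiating ones, and 3.65-fold (2.82 to 4.80) and 2.01-fold (1.74 to 2.35) more Slc1a3. For Slc4a4 that ratio was 3.48 (2.00 to 6.62) with vehicle and 1.30 (0.983 to 1.76) with FGF21.

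A background share was estimated per library from markers in classes that should lack them, at 33.3% of the library's mean profile with vehicle and 38.2% with FGF21. That profile accounted for 1.66% to 13.6% of each gene's UMIs in astrocyte-like cells. In precursor-like cells it accounted for 30.6% and 56.8% of Slc1a2, 39.8% and 63.5% of Slc1a3 and 37.5% and 89.0% of Slc4a4 UMIs. Its share was 81.1% and 78.9% for Glul, 78.0% and 116% for Aqp4, 71.4% and 113% for Mlc1 and 92.1% and 91.6% for Gjb6 there. For Gja1 it predicted more UMIs than were counted in both libraries (141% and 178%).

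Between the treatments, the glutamate transporter Slc1a3, the enzyme Glul, the cotransporter Slc4a4 and Mlc1 had nearly the same astrocyte-like level, whereas both connexins, Slc1a2 and Aqp4 were lower in the FGF21 library. Gjb6 had 1049 CPM in vehicle and 681 in FGF21 cells, a ratio of 0.649 (0.577 to 0.731), and Gja1 had 3138 and 2454, a ratio of 0.782 (0.732 to 0.836). Slc1a2 had a ratio of 0.859 (0.830 to 0.888) and Aqp4 of 0.871 (0.776 to 0.979). The ratios of Slc1a3 (0.986, 0.941 to 1.03), Glul (1.03, 0.980 to 1.09), Slc4a4 (0.998) and Mlc1 (0.982) had intervals that included 1. Gjb6 alone was at least 1.5-fold apart, 1 of 8, against 19.5% of 6128 genes with at least 50 UMIs in either direction and 8.63% in the lower one (10.9% in the higher). All 8 genes had at least 500 UMIs there, and of the 373 such genes 6.43% were that far apart and 1.88% were lower. None of the 8 was 2-fold apart, as 4.52% of the 6128 genes were. The median log2 ratio of the 8 was -0.11, and that of all genes 0.00.

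The 98 and 192 cells are not replicates, and the ratios compare 2 pooled libraries. Without the 10% of cells with the highest share of precursor marker UMIs the Gjb6 ratio was 0.690, and with background subtracted 0.678. Both were under the 1.5-fold limit. Markers of other cell types differed between the astrocyte-like cells of the libraries. The 9 mural markers summed to 635 CPM in vehicle and 178 in FGF21 cells (Tagln and Myh11 at 0 in vehicle), the 9 microglia markers to 7892 and 6242, the 10 precursor markers to 1052 and 1871 and the 8 oligodendrocyte markers to 347 and 799.6. The 5 erythroid markers summed to 2547 and 1297, the 7 differentiating precursor markers to 616 and 782 and the 6 choroid plexus markers to 401 and 552. The 12 astrocyte markers summed to 10077 and 10065, and mitochondrially encoded UMIs made up 8.71% and 8.80%. The part of these in the ratios was not tested.

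**Figure D4:**
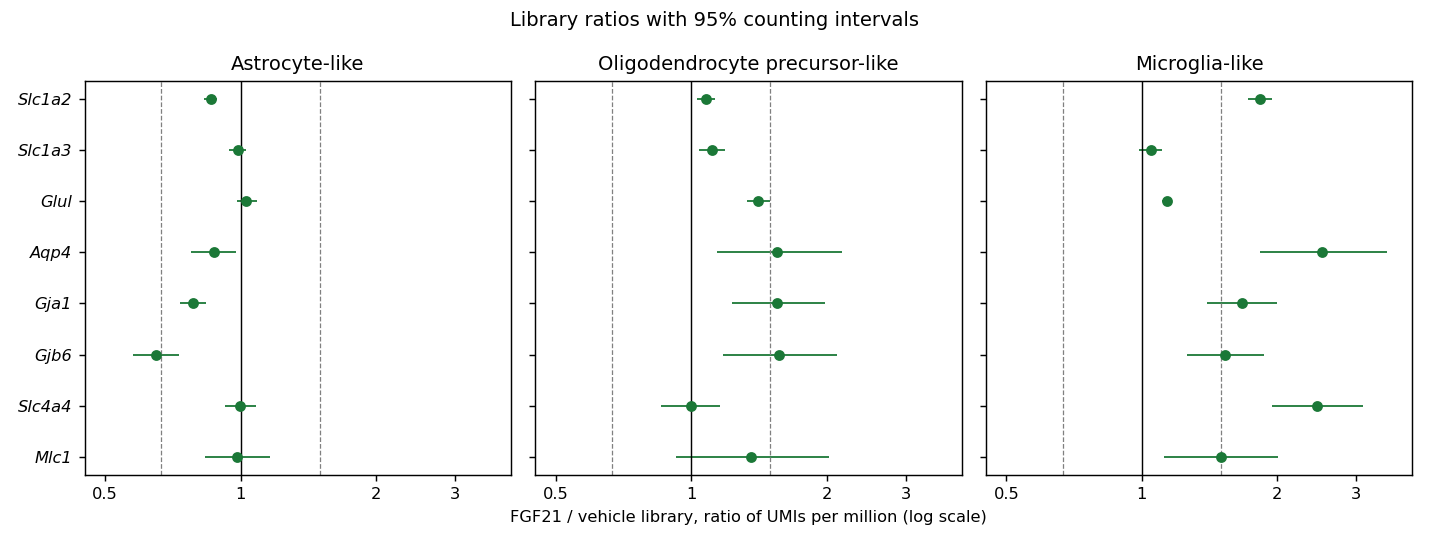
Ratio of the FGF21 to the vehicle level of each gene (horizontal axis, log scale) in 3 classes, with 95% counting intervals; the solid line marks 1 and the dashed lines a 1.5-fold difference. In astrocyte-like cells 4 genes lie below 1 with their intervals, with Gjb6 lowest at 0.649, while in microglia-like cells 5 genes lie beyond 1.5.

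In precursor-like cells the ratios lay between 0.997 and 1.57. Aqp4 went from 21.4 to 33.3 CPM (ratio 1.55, 1.14 to 2.16), Gja1 from 37.2 to 57.8 (1.55, 1.23 to 1.98) and Gjb6 from 25.9 to 40.6 (1.57, 1.18 to 2.11). Glul had a ratio of 1.41 (1.33 to 1.5), Mlc1 of 1.36 (0.925 to 2.03), Slc1a3 of 1.11 (1.04 to 1.19), Slc1a2 of 1.08 (1.03 to 1.13) and Slc4a4 of 0.997 (0.857 to 1.16). That put 3 of 8 at least 1.5-fold higher, against 5.77% of 11485 genes (4.85% were lower), and the median log2 ratio at 0.46 against -0.01 over all genes. None of the 8 was 2-fold apart there, against 2.31% of all genes in either direction; 1.5-fold apart in either direction were 10.6%. The astrocyte-like share of used cells was 4.19% (3.42 to 5.09) with vehicle and 9.92% (8.63 to 11.3) with FGF21, and the 12 astrocyte markers summed to 697 and 1087 CPM in precursor-like cells. The same markers summed to 257 and 607 CPM in microglia-like cells, where 5 of 8 genes were at least 1.5-fold apart, all of them higher (17.1% of 11368 genes were apart in either direction). Aqp4 was there at 9.61 and 24.2 CPM, a ratio of 2.52 (1.83 to 3.51), and Slc4a4 at 18.5 and 45.4, a ratio of 2.45 (1.95 to 3.10). With the background subtracted, and levels under 0 set to 0, the precursor-like ratio was 0.724 for Slc1a2, 0.727 for Slc1a3 and 0.190 for Slc4a4. No FGF21 Aqp4 or Mlc1 was left, so their ratios of 0 give no direction. No Gja1 was left in either library. Glul (1.70) and Gjb6 (1.80) stayed above 1, each from the small part of its UMIs that was left.

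In differentiating precursor-like cells 5 of the 8 genes passed the minimum of 50 UMIs, and all 5 were at least 1.5-fold higher in the FGF21 library (7.80% of 4990 genes). Gja1 had 10 vehicle and 72 FGF21 UMIs, 22.7 and 107 CPM, a ratio of 4.69 (2.41 to 10.2). Of those 72 UMIs, 18 (25.0%) came from 1 of the 38 cells, and without it the FGF21 level was 82.3. Slc1a2 (293 and 548 CPM, ratio 1.87), Slc1a3 (139 and 278, 2.01), Glul (423 and 741, 1.75) and Slc4a4 (29.5 and 78.5, 2.66) were the others. Background accounted for 91.7% to 145% of the UMIs of these 4 genes there, and for 231% (vehicle) and 96.6% (FGF21) of those of Gja1. In oligodendrocyte-like cells Glul was level, at 2493 and 2517 CPM (ratio 1.01, 0.927 to 1.10).

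Other genes of the same processes were followed in 4 lists. Of all genes, 10.9% were at least 1.5-fold higher with FGF21 in astrocyte-like cells and 8.63% lower. In precursor-like cells these shares were 5.77% and 4.85%, and the list counts below stand beside them. Of 14 genes of glutamate and glutamine handling, 9 passed the minimum in astrocyte-like cells, with 1 higher and 0 lower by 1.5-fold. That gene was Slc25a18, a mitochondrial glutamate carrier, with 160.1 and 324 CPM (ratio 2.03, 1.55 to 2.68), and in precursor-like cells 12.5 and 28.3 (2.26, 1.53 to 3.44). Slc1a4, a neutral amino acid transporter, had 283 and 394 (1.39, 1.13 to 1.72), while Glud1, glutamate dehydrogenase, had 532 and 516 and the cystine-glutamate exchanger Slc7a11 419 and 416. In precursor-like cells 12 of the 14 passed, with 1 higher and 0 lower.

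Of 12 genes of the water, potassium and end-foot complex, 7 passed in astrocyte-like and 10 in precursor-like cells, and 0 were 1.5-fold apart in either. Hepacam, the adhesion protein that binds the product of Mlc1, had 759 and 754 CPM in astrocyte-like cells. The end-foot scaffold genes Dtna (557 and 573) and Dag1 (586 and 542) differed little too, and the potassium channel gene Kcnj16 had 239 and 213. Kcnj10, the main astrocytic potassium channel gene and named here after its values were seen, had 195 and 144 CPM, a ratio of 0.742 (0.565 to 0.980). Trpv4, a cation channel, had 16 and 51 UMIs in precursor-like cells, a ratio of 1.51 (0.846 to 2.83) that was under the limit once 0.5 UMIs were added to each sum.

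Of 13 other connexins and junction partners, 5 passed in astrocyte-like cells, with 1 higher and 0 lower. This was Gjb2, an astrocytic and meningeal connexin, with 9 and 49 UMIs, 22.2 and 40.6 CPM (ratio 1.83, 0.891 to 4.25). The adhesion gene Cdh2 (185 and 212 CPM) and the tight junction scaffold Tjp1 (128 and 94.6) were within 1.5-fold, as was Gjc3 (123 and 159), a connexin of the oligodendrocyte lineage. Gjc3 was 931 and 736 CPM in precursor-like cells, and its background there was 14.3% and 24.9%, against 108% and 115% in astrocyte-like cells. In precursor-like cells 8 passed, with 1 higher and 0 lower.

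Of 11 genes of bicarbonate and pH, 7 passed in astrocyte-like cells, with 0 higher and 2 lower. Among the lower was the anion exchanger Slc4a3 (66.5 and 43.1 CPM, ratio 0.649, 0.400 to 1.07), with an interval that included 1. Car2, a carbonic anhydrase, had 468 and 557 CPM, the monocarboxylate transporter Slc16a1 81.3 and 103, and the exchanger genes Slc4a2 71.4 and 53.9 and Slc4a8 61.6 and 45.6. In precursor-like cells 10 passed, with 3 higher and 1 lower. Among the higher were Car2 (ratio 1.91, 1.59 to 2.32) and Slc16a1 (1.68, 1.26 to 2.29), and the lower one was Car4 (0.351, 0.227 to 0.538). Background accounted for 123% and 122% of the Car2 UMIs in those cells.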

How the data were processed

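The deposited tables held whole counts of molecules (UMIs) for each gene in each cell. Per the file headers they came, RSEC-corrected, from the BD WTA Rhapsody Analysis Pipeline, version 1.9.1; the authors' build was GRCm38, per the submitters' processing notes. Neither annotation nor aligner nor cell calling is given in the sources used here. A gene without a column counted as 0 UMIs. Cells had at least 500 UMIs, 300 genes and at most 25% mitochondrially encoded UMIs; Scrublet, run per library in scanpy 1.11.5, called 17 and 16 doublets (0.767%), which were removed. Clustering (2000 variable genes, 30 principal components, 15 neighbours, Leiden resolution 1.0, no integration, the 8 genes left out) gave 15 clusters. A cluster was named when its best of 14 marker lists led by 0.5 in mean z-score with at least 3 markers in 10% of its cells. The cluster named border macrophage-like also held leukocyte markers.

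UMIs were summed per class and library. Levels have Poisson, shares Clopper-Pearson and ratios conditional-binomial exact 95% intervals. Gene counts used at least 50 UMIs and 0.5 added to each sum. There was 1 library per treatment, so no test was run; ratio and thinning steps were tested on simulated data. The background is the median, over 17 pairs per library, of a marker list's level in a class that should lack it over its level in all used cells.

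Members and lists were chosen with earlier results of these data known. Named genes were the 8, the 4 list members with most UMIs in astrocyte-like cells, list members 1.5-fold apart there or in precursor-like cells, and the 3 most alike genes. Some list members that are in the counts are not reported here by name. RefSeq windows were matched by symbol, gene positions by GENCODE vM21. Alternatives were cell filters, resolution, doublets, weighting, background, scaling, fold limit and thinning.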

Additional observations from a re-analysis of the deposited data

Results flagged for a closer look

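Slc1a2, Aqp4, Gja1 and Gjb6 had opposite directions in 2 classes. In astrocyte-like cells the FGF21 to vehicle ratio was 0.859 for Slc1a2, 0.871 for Aqp4, 0.782 for Gja1 and 0.649 for Gjb6. In oligodendrocyte precursor-like cells it was 1.08, 1.55, 1.55 and 1.57. With 1 library per treatment, the difference between the classes was not tested. With background subtracted the Slc1a2 ratio in precursor-like cells was 0.724, so that it lay below 1 in both classes. For Aqp4 the background exceeded the FGF21 UMIs counted there. Levels under 0 were set to 0, so its ratio of 0 gives no direction. For Gja1 the background exceeded the UMIs counted there in both libraries (141% and 178%), so no ratio was left. For Gjb6 the background accounted for 92.1% and 91.6% of the UMIs there, and the ratio of what was left was 1.80.

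The barcodes left out by the cell filter, 571 vehicle and 504 FGF21 with median mitochondrial shares of 42.6% and 42.2%, held some of the genes at higher levels than used cells, relative to UMIs that were not mitochondrially encoded. In the vehicle library Slc1a2 was 3.22-fold (3.00 to 3.46), Slc4a4 2.16-fold (1.68 to 2.73), Glul 1.49-fold (1.37 to 1.61) and Slc1a3 1.30-fold (1.14 to 1.49) higher there. Aqp4 (39 UMIs) was 2.65-fold (1.86 to 3.67), Mlc1 (25 UMIs) 2.66-fold (1.70 to 3.99) and Gjb6 (34 UMIs) 1.62-fold (1.12 to 2.29) higher. In the FGF21 library Slc1a2 was 2.30-fold (2.13 to 2.47) and Glul 1.56-fold (1.43 to 1.69) higher. Mlc1 (30 UMIs) was 2.32-fold (1.56 to 3.34) and Gjb6 (37 UMIs) 1.77-fold (1.24 to 2.45) higher there, and Slc1a3 had a ratio of 0.909 (0.781 to 1.05). Gja1 in both libraries, and Aqp4 and Slc4a4 with FGF21, had intervals that included 1. Relative to all UMIs, over all barcodes that were not used, called doublets included, Slc1a2 was still higher (intervals of the ratio 1.77 to 2.03 and 1.18 to 1.35). So were vehicle Aqp4 (1.56, 1.12 to 2.13), Slc4a4 (1.45, 1.16 to 1.79) and Mlc1 (1.59, 1.04 to 2.34). Glul had ratios of 0.924 and 0.944 and vehicle Slc1a3 of 0.886, so their direction depends on the scaling. FGF21 Slc1a3 was below 1 on both scales (0.652 on this one). Gja1 (0.684 and 0.638), FGF21 Aqp4 (0.535, 0.351 to 0.781) and FGF21 Slc4a4 (0.612, 0.478 to 0.772) were below 1 on this scale. Gjb6 had 0.917 (0.637 to 1.28) and 0.925 (0.672 to 1.24), and FGF21 Mlc1 1.13 (0.778 to 1.59), on that scale.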

How the results depend on the processing

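All 8 genes stayed highest in astrocyte-like cells, and at least 5-fold above precursor-like cells, under each alternative that gave a value. Background was then subtracted, with levels under 0 set to 0 and each class rescaled to the UMIs left. In FGF21 precursor-like cells 3 genes then counted as at least 2-fold above microglia-like cells. Of these, Slc1a3 had a ratio of 3.04. For Slc1a2 and Slc4a4 nothing was left in microglia-like cells. They were set against a floor of 3 UMIs there, and no 2-fold ratio could be taken. Between libraries, 0 genes were 1.5-fold apart in astrocyte-like cells (Gjb6 0.678) and 5 in precursor-like cells, Aqp4 and Mlc1 at 0 among them. In precursor-like cells the ratios of Slc1a2 (0.724) and Slc1a3 (0.727) reversed and that of Slc4a4 went to 0.190. For Aqp4 and Mlc1 no FGF21 level was left, so their ratios of 0 give no direction. Without the rescaling, chosen after seeing the data, Gjb6 (0.628) was 1 gene apart in astrocyte-like cells and 5 were in precursor-like cells. The reversed ratios were then 0.670 and 0.673. The subtracted level was higher with FGF21 (Aqp4 16.7 and 38.6 CPM, Slc4a4 38.5 and 91.1); its part in each ratio was not tested. At a 2-fold limit 0 genes were apart in either class. The 10% of cells with the highest share of other-class marker UMIs (precursor markers in astrocyte-like cells, astrocyte markers elsewhere) were left out, chosen after seeing the data. This gave 2 genes at least 2-fold above microglia-like cells in FGF21 precursor-like cells and 0 apart in astrocyte-like cells. Leaving out mitochondrially encoded genes from the totals, also chosen after seeing the data, changed no count. Of 96 single levels and ratios, 26 then moved outside their counting intervals. With background subtracted and classes rescaled, 69 of 82 moved and 3 more reversed. The median share of cells with a UMI went with thinning to 4000 UMIs to 100% and 99.0% in astrocyte-like and 22.4% and 26.4% in precursor-like cells, and at 2000 UMIs to 12.6% and 14.1% in the latter, because fewer UMIs are kept and shallow cells are left out. Over 9 alternatives the astrocyte-like ratio of Gjb6 ran from 0.613 to 0.690 and that of Gja1 from 0.762 to 0.823. Leaving out every cell with 2 or more other-class marker UMIs kept 14 of 192 FGF21 astrocyte-like and 9 of 587 precursor-like cells, so no FGF21 value is given. No paired analysis was possible because there was 1 library per treatment. Depth limits Aqp4, Gjb6 and Mlc1 outside astrocyte-like cells.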

Other observations

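The fibroblast-like cells, 19 vehicle and 9 FGF21 cells that were too few for the comparisons above, held Gja1 and Slc1a3 above the level of microglia-like cells. Gja1 stood at 447 CPM (304 to 635) and 509.6 (311 to 787), Slc1a3 at 1097 (864 to 1373) and 1452 (1100.0 to 1882). Glul was at 2468 (2112 to 2867) and 3312 (2768 to 3933), against 1764 and 2004 in microglia-like cells, but 1 vehicle cell held 48 of 171 UMIs (28.1%), and without it the vehicle level was 1973. Gjb6 had 50 vehicle and 5 FGF21 UMIs, 722 CPM (536 to 951) and 127 (41.4 to 297), against 1049 and 681 in astrocyte-like cells. Slc1a2 was near the background, at 202 and 459 CPM, and Aqp4 had 0 and 1 UMIs.

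Among the 16 FGF21 endothelial-like cells, 1 cell held 90 of 118 Slc1a2 UMIs (76.3%), 76 of 83 Slc1a3 UMIs (91.6%), 34 of 36 Gja1 UMIs (94.4%) and all 23 Slc4a4 UMIs. Without that cell the Gja1 level of the class was 56.1 CPM.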
